A study of Mus musculus with 3 samples.

Results

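The genes described here encode the enzymes, cofactors and membrane proteins of the lysosome, together with the transcription factors Tfeb and Tfe3. They were chosen by name: 43 gene symbols were listed, and all 43 were found among the 20677 rows of the expression table (17613 of which carry a symbol). No measured value was a criterion, but earlier results of these data were known when the genes were chosen. Skin mast cells were sorted from mice at 1 week after birth on a C57BL/6xCD1xFVB background, and their total RNA was sequenced. The library called early EMP (early erythro-myeloid progenitor) came from Csf1rCre/EYFP mice given 4’OHT, the tamoxifen metabolite that activates Cre, at embryonic day 8.5. The library called late EMP came from Runx1Cre/EYFP mice given the drug at day 8.5, and the library called fetal HSC (haematopoietic stem cell) from Runx1Cre/EYFP mice given it at day 9.5. All 3 groups carry an EYFP reporter that Cre switches on, so the label marks descendants of cells in which the Csf1r or Runx1 promoter was active at the pulse. The early EMP group differs from the others in the driver as well as in the origin, and these cannot be told apart. The sources used here do not say how many animals went into a library. Each origin has 1 library, so there is no replicate check, no p-value is given, and every difference below is a difference between libraries.

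Lysosomes are acidic compartments in which proteins, glycans, sulfated polysaccharides and lipids are broken down by hydrolases. Most of the hydrolases are carried there from the Golgi by mannose 6-phosphate receptors, and the proton pump V-ATPase keeps the lumen acidic. TFEB and TFE3, with MITF, bind a short element known as the CLEAR element in the promoters of many of these genes. Mast cell granules are lysosome-related organelles: they store proteases on a heparin scaffold and share many lysosomal proteins, among them cathepsins, hexosaminidase and LAMP proteins.

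The element was looked for in the promoters of the members, since they are described as targets of one family of factors. Promoters are the 250 bases before and 50 after each start site, from RefSeq on build GRCm38.p6, and 39 of the 43 members had an entry. The core CACGTG, which reads the same on both strands, lay in the promoter of 12 of these 39 genes (30.8%). Of all 27025 genes with a promoter entry, expressed here or not, 2187 held it (8.09%). All members were expressed: among genes with a symbol at 1 FPKM or more in at least 1 library, 1116 held it and 8180 did not. The longer form TCACGTGA, which contains the core, was present in 4 of the 39 (10.3%), namely Ctsa, Cln3, Ctsd and Mcoln1. Of all genes with an entry, 1.12% held it. With a further G before and C after it, the motif was found in 1 member, Cln3, and in 0.37% of all genes with an entry. The other 8 genes with the core were Lamp1, Lgmn, Sgsh, Gaa, Glb1, Naglu, Arsa and Ctsl. A stretch is shown for each of the 12 genes, because the difference of a gene between libraries is set against this motif further on. Ctsd, Mcoln1, Cln3 and Ctsa each hold 2 copies, of which 1 is printed. Each runs 5′ to 3′ on the strand of the gene, capitals mark the core, and the position of its first base is counted from the start site. A match describes these letters and is not evidence of binding. In Lamp1, 4 copies lie in 73 bases directly before the start (chr8:13159088-13159160, plus strand).
Lamp1: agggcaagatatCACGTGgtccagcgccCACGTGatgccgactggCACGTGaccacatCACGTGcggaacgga
Ctsd, position -98 (chr7:142387908-142387937, minus strand): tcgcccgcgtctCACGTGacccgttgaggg
Mcoln1, position -45 (chr8:3500462-3500491, plus strand): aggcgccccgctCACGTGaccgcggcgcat
Cln3, position -121 (chr7:126583340-126583369, minus strand): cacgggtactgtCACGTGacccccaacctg
Lgmn, position -49 (chr12:102439124-102439153, minus strand): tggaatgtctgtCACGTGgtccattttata
Sgsh, position -29 (chr11:119355522-119355551, minus strand): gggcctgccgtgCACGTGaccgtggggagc
Gaa, position -140 (chr11:119267811-119267840, plus strand): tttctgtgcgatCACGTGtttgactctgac
Glb1, position -48 (chr9:114401018-114401047, plus strand): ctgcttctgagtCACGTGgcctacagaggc
Naglu, position -73 (chr11:101070009-101070038, plus strand): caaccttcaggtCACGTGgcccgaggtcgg
Arsa, position -16 (chr15:89477425-89477452, minus strand): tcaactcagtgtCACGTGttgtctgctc
Ctsl, position -236 (chr13:64370739-64370768, minus strand): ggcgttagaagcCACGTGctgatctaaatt
Ctsa, position -12 (chr2:164833749-164833772, plus strand): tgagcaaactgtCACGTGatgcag

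The values are FPKM, fragment counts scaled for transcript length and library size, so levels can be compared between genes. Sets of 3 values always stand in the order early EMP, late EMP, fetal HSC. The deposited values summed to 639067, 614207 and 640500 FPKM. Depth is not stated. From the steps between low values it was estimated, imprecisely, at 15600000, 15700000 and 17300000 fragments. The labelled cell type was checked on 12 mast cell genes, all above 0 in every library: their summed level was 217977, 187846 and 219253 FPKM, with the chymase Cma1 at 73918, 63894 and 80925 FPKM. Markers of other cell types differed between libraries. The macrophage list was led by Apoe at 3449, 2608 and 3214 FPKM, and the MHC class II list summed to 57.3, 205 and 1427. Erythroid genes summed to 186, 15.5 and 13.7 FPKM and 7 neutrophil and granulocyte precursor genes to 3.10, 53.5 and 126, with Mpo at 0.88, 39.2 and 47.9. C1qa, C1qb and C1qc of macrophages ranged from 14.8 to 20.4 FPKM in early EMP and from 3.05 to 3.96 FPKM in fetal HSC. Melanocyte genes summed to 1.66, 14.1 and 41.6 FPKM, and T and innate lymphoid cell genes to 44.8, 63.0 and 74.2. Keratinocyte, fibroblast and endothelial lists summed to 7.52 FPKM or less in each library. The 12 mitosis genes read summed to 41.7, 224 and 235 FPKM.

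**Figure D1:**
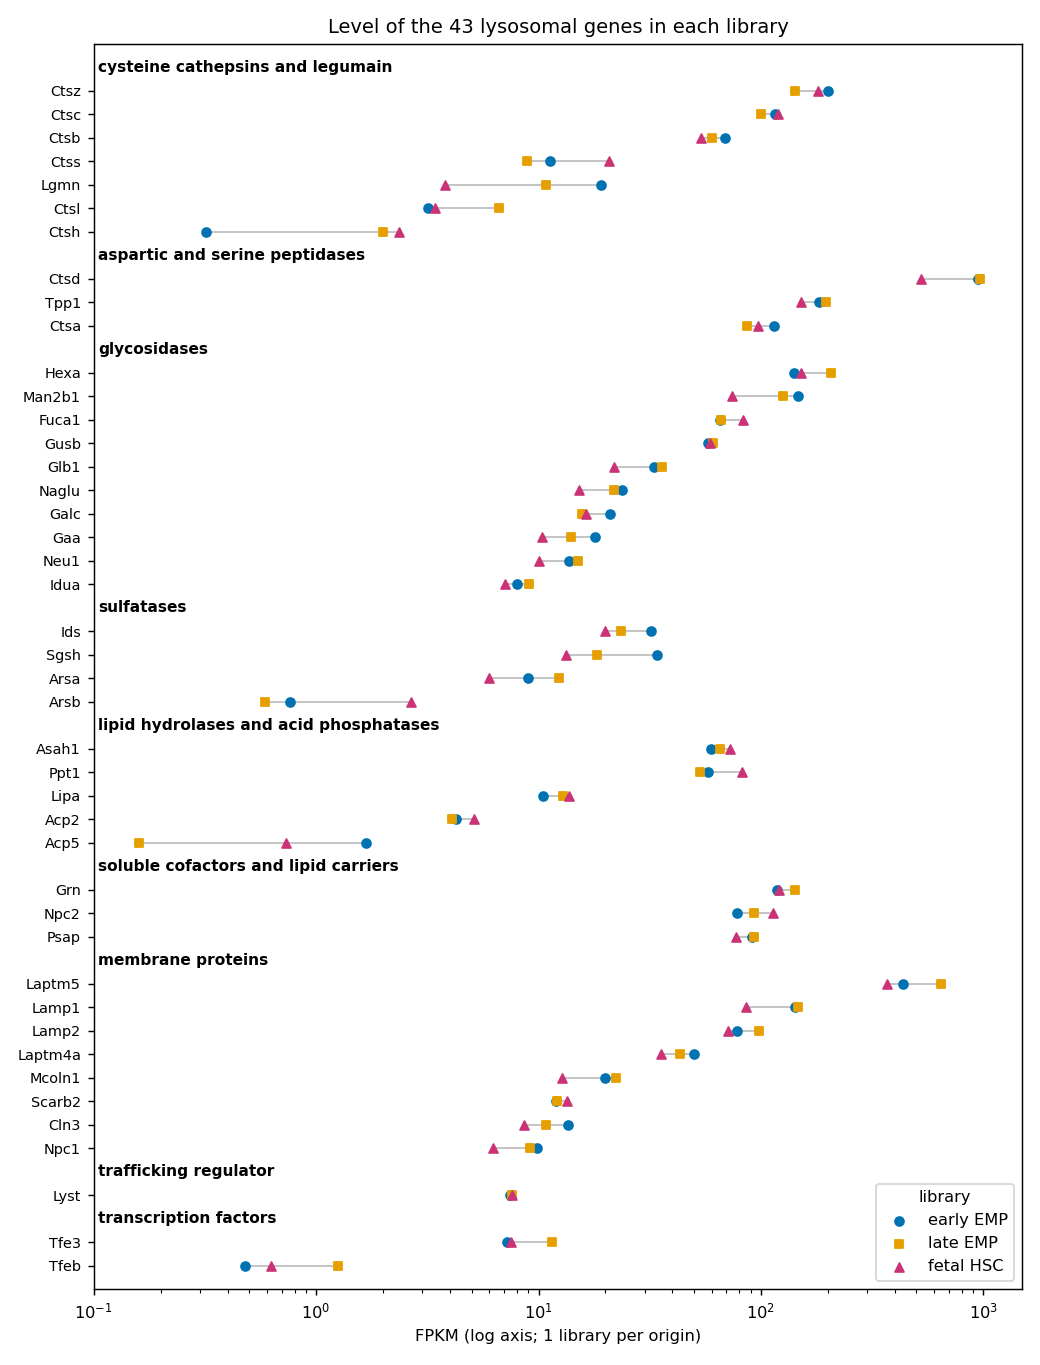
Level of each of the 43 lysosomal genes in FPKM (log axis) in the early EMP (circles), late EMP (squares) and fetal HSC (triangles) libraries, 1 library each, grouped by role. The levels span from 0.16 FPKM for Acp5 in late EMP to 967 FPKM for Ctsd in late EMP, and the 3 symbols of most genes lie close together, while those of Lgmn, Ctsh, Arsb and Acp5 are spread.

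Lysosomal genes were abundant in all 3 libraries. Their summed level was 3464, 3678 and 2748 FPKM, which is 0.542%, 0.599% and 0.429% of the table. The median member was at 31.9, 22.4 and 19.9 FPKM, against 7.42, 7.89 and 7.19 FPKM for the 11529 genes with a symbol at 1 FPKM or more in at least 1 library. Ctsd, the aspartic protease cathepsin D, alone gave 27.4%, 26.3% and 19.0% of the members' sum. Without Ctsd and Laptm5, a membrane protein of haematopoietic lysosomes, the sums were 2083, 2068 and 1856 FPKM, closer to each other than the full sums. Of the 43 members, 29 were at 10 FPKM or more in every library and 6 at 100 FPKM or more, while 4 (Ctsh, Arsb, Acp5 and Tfeb) were under 1 FPKM in at least 1 library.

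Differences are given on the log2 scale of FPKM + 1, which understates those of low genes. All 43 members passed the filter of 1 FPKM in at least 1 library that left 14412 genes. Over the 3 libraries, 21 of the 43 members (48.8%) lay within 1.5-fold of each other and 37 (86.0%) within 2-fold. Among the 11529 kept genes with a symbol, 48.2% lay within 1.5-fold and 75.8% within 2-fold. Restricted to genes at 5 FPKM or more in at least 1 library, 36 of 39 members (92.3%) and 82.7% of genes with a symbol lay within 2-fold. The 6 members beyond 2-fold were Lgmn, Ctsh, Sgsh, Arsb, Acp5 and Ctss. The comparisons share libraries and are therefore not independent of each other.

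Late EMP over early EMP sets the later progenitor wave, labelled through Runx1, against the earlier one, labelled through Csf1r. Both were pulsed at day 8.5, so wave and driver differ together. The median member differed by 0.02, a sign that other scalings turned, and the median of all kept genes by 0. At least 1.5-fold higher were 4 of 43 members (9.3%), Ctsh, Ctsl, Tfeb and Tfe3, where 18% of all kept genes were. At least 1.5-fold lower were 3 (7.0%), Lgmn, Sgsh and Acp5, against 20.7% of all kept genes. With median-of-ratios scaling Tfeb and Tfe3 dropped out, which left 2 higher and 3 lower. At 2-fold, Ctsh was the 1 member higher and Acp5 the 1 lower, against 8.65% and 10.8% of all kept genes. At 1.5-fold, restricting the table to symbols gave 17.8% higher and 12.4% lower, so the members' shares were below this background on each side. Of the 39 members at 5 FPKM or more in at least 1 library, 2 were higher and 2 lower, against 15.2% and 9.5% of the 7839 genes with a symbol at that level.

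Fetal HSC over early EMP sets the latest pulse, driven by Runx1, against the Csf1r-driven one. The median member was 0.23 lower, the median kept gene 0.11 lower and the median kept gene with a symbol 0.03 lower. At least 1.5-fold lower were 12 of 43 members (27.9%), against 28.2% of all kept genes and 19.3% of those with a symbol. At least 1.5-fold higher were 3 (7.0%), against 15.8% of all kept genes. That split of 3 higher and 12 lower became 5 and 7 with median-of-ratios scaling, which brought Naglu, Ids, Npc1, Cln3 and Mcoln1 under 1.5-fold and Ppt1 and Npc2 past it. After centring on GC content it was 3 and 6, without Gaa, Naglu, Acp5, Npc1, Cln3 and Mcoln1. Lgmn, Sgsh, Man2b1, Ctsd and Lamp1 were at least 1.5-fold lower under both. At 2-fold, 2 members were lower (Lgmn and Sgsh) and 2 higher (Ctsh and Arsb), against 17.8% and 8.19% of all kept genes. The share of lower members is that of the table as a whole, which also holds 2883 kept rows without a symbol, and above that of genes with a symbol. At 5 FPKM or more, 11 of 39 members were lower, against 15.4%, and 1 was higher, against 14.4%.

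In fetal HSC over late EMP both libraries were made with Runx1-driven Cre, and the pulse differs. Sex-linked RNA differed too: Xist was at 0.53 FPKM in late EMP and 51.98 in fetal HSC, and the Y-linked Ddx3y at 38.53 and 0.32. The pulse and the sex of the animals therefore cannot be told apart in this comparison. Early EMP held both RNAs, with Xist at 25.57 and Ddx3y at 20.74 FPKM, so sex-linked RNA differed in the other comparisons too. For fetal HSC over late EMP, 28 of 43 members lay below 0 where 58.0% of all kept genes did. The median was -0.28, against -0.10 for all kept genes. At least 1.5-fold lower were 9 members (20.9%), against 19.1% of all kept genes and 16.4% of those with a symbol. At least 1.5-fold higher were 3 (7.0%), namely Ctss, Arsb and Ppt1, against 8.85% of all kept genes. At 2-fold, Lgmn was lower, and Ctss and Arsb were higher, against 8.26% and 3.46% of all kept genes. At 1.5-fold the counts are near the background of all kept genes in both directions. At 5 FPKM or more, 9 of 39 members were lower, against 13.1% of genes with a symbol at that level, and 2 were higher, against 6.12%.

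**Figure D2:**
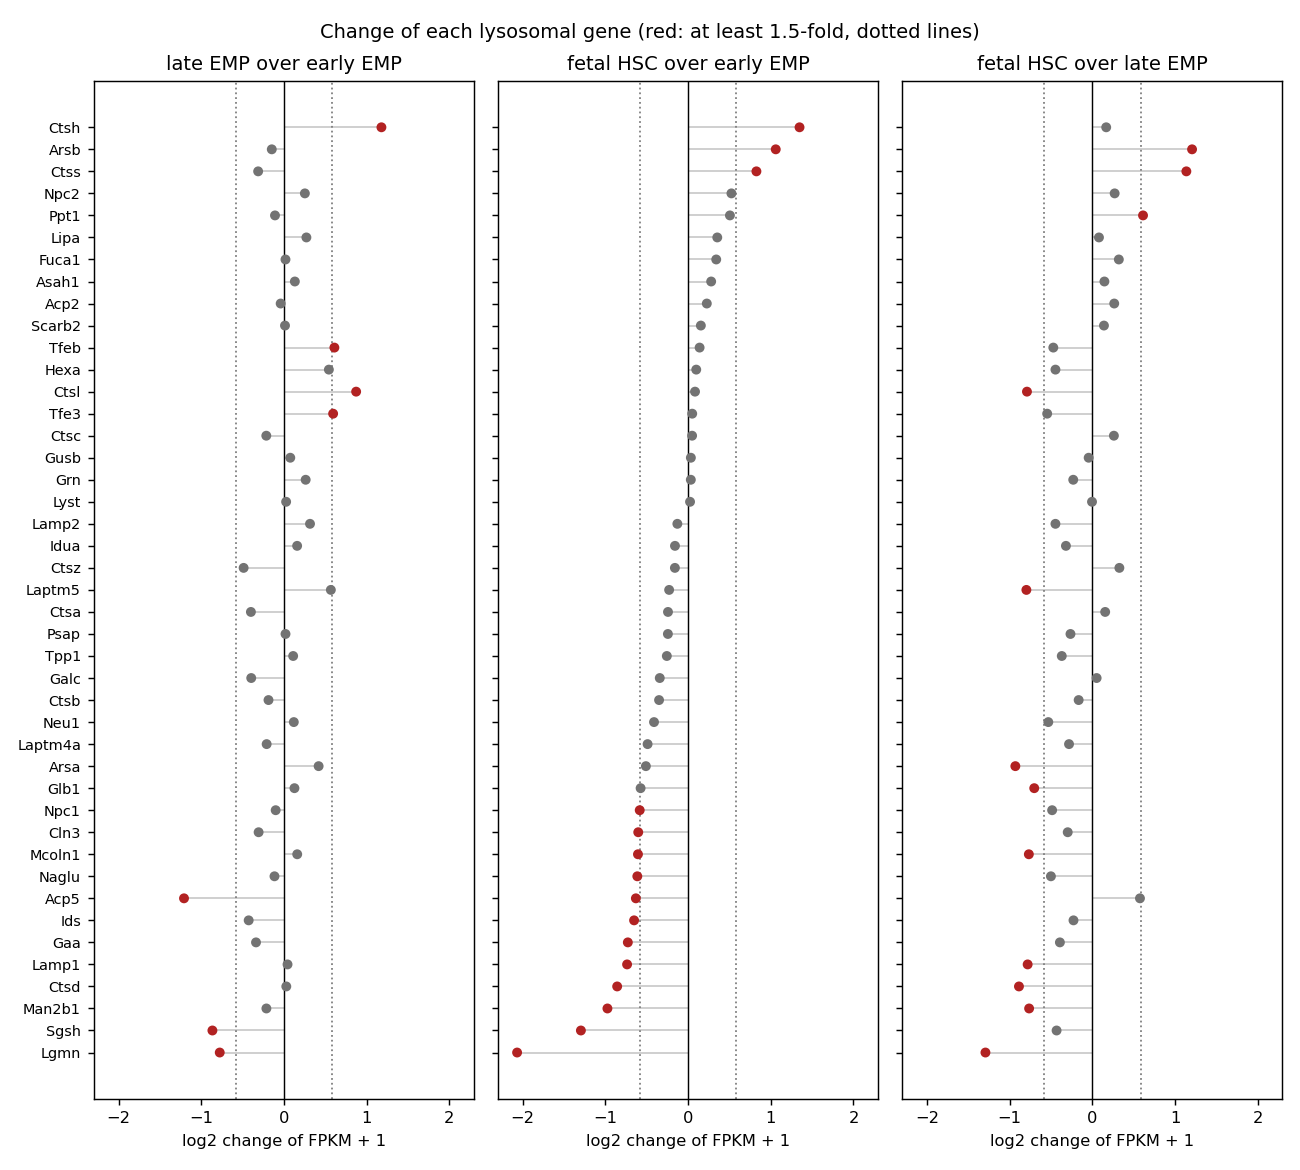
Difference of each of the 43 lysosomal genes between libraries, as log2 of FPKM + 1, in the 3 comparisons, sorted by fetal HSC over early EMP; red points lie at least 1.5-fold apart (dotted lines). Lgmn is the lowest in the middle panel at -2.07, Ctsh the highest at 1.35, and more points lie left of 0 than right of it in the middle and right panels.

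**Figure D3:**
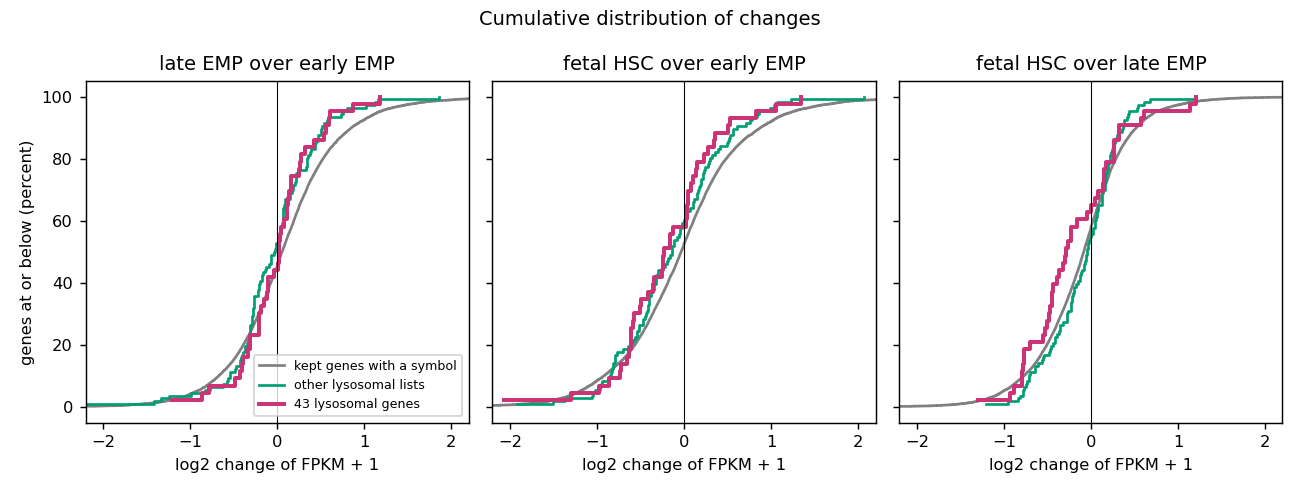
Cumulative percentage of genes against their log2 difference of FPKM + 1, for the 43 lysosomal genes, the other lysosomal lists and all kept genes with a symbol, in the 3 comparisons. The curve of the members lies left of that of all genes around its middle in both comparisons with fetal HSC, with medians of -0.23 and -0.28 against -0.03 and -0.08, and follows it more closely in the comparison of both EMP libraries.

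The cysteine proteases are the papain-like cathepsins and legumain, the asparaginyl endopeptidase that processes some of them. Of these, Ctsz was at 201, 143 and 180 FPKM, Ctsc at 116, 99.8 and 120, and Ctsb at 68.96, 60.49 and 53.85. Ctsc (cathepsin C) removes dipeptides from the pro-forms of mast cell and neutrophil serine proteases. The 3 abundant members of this group therefore lay within 1.5-fold over all libraries, while the 4 low ones did not.

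Lgmn, legumain (chromosome 12, 102394082 to 102439728, GRCm38.p6), was at 19.2, 10.8 and 3.81 FPKM. It was highest in early EMP, intermediate in late EMP and lowest in fetal HSC, with log2 differences of -0.78 for late over early EMP, -2.07 for fetal HSC over early EMP and -1.29 for fetal HSC over late EMP. Counting error alone, as a 95% exact Poisson interval at the estimated depth, gave 17.6 to 20.8, 9.60 to 12.03 and 3.15 to 4.54 FPKM. Legumain is abundant in macrophages, and macrophage markers were lower in the same direction. Of 16 macrophage genes read, 12 passed the filter. In fetal HSC, 8 of these were at least 1.5-fold lower than in early EMP and none higher, against 28.2% and 15.8% of all kept genes. For late over early EMP, where Lgmn also differed, 3 were lower and 2 higher, namely Adgre1 (0.50, 2.18 and 0.04 FPKM) and Cd163 (0.02, 1.57 and 0.24). Of all kept genes, 20.7% were lower and 18% higher in that comparison. The receptor Csf1r was at 5.70, 2.54 and 1.47 FPKM and Cd68, a lysosomal glycoprotein of macrophages, at 17.8, 6.44 and 9.70, while C1qc was at 17.1, 16 and 3.68 and Lyz2 at 37.7, 39.8 and 44.8. The list summed to 3579, 2712 and 3287 FPKM, mostly from Apoe, with 1, 0 and 2 of its genes at 0 (Timd4 in early EMP, and Timd4 and Fcgr1 in fetal HSC). The part of such RNA in the Lgmn values was not tested. In bulk RNA, fewer cells of a type and less RNA per cell cannot be told apart.

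Ctss, cathepsin S (chromosome 3, 95526786 to 95556405), was at 11.3, 8.88 and 20.7 FPKM. It was highest in the fetal HSC library, by 0.83 over early EMP and 1.14 over late EMP. Cathepsin S trims the invariant chain from MHC class II molecules in antigen-presenting cells. The 9 genes of MHC class II presentation read here were led by the invariant chain Cd74 at 12.9, 84.8 and 639 FPKM. All 8 of them that passed the filter were above both EMP libraries in fetal HSC, and 5 of the 8 were above early EMP in late EMP, where Ctss was lowest. The other 3, H2-DMb1, H2-Oa and H2-Ob, were lowest in late EMP, as Ctss was. Of all kept genes, 56.5% lay below 0 for fetal HSC over early EMP and 58.0% for fetal HSC over late EMP. For late over early EMP, 49.7% did. Of 9 dendritic cell markers in the table, which summed to 4.41, 4.46 and 11.2 FPKM with 2, 1 and 0 of them at 0, Flt3 was at 0.07, 0.59 and 3.16 and Xcr1 at 0.03, 0.52 and 2.96, while Itgax was listed at 0 in both EMP samples. Epcam was highest in early EMP (4, 0.67 and 1.55 FPKM) and Cd209a in late EMP (0.05, 1.2 and 0.39). Their part in the Ctss values was not tested.

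The remaining cysteine cathepsins were low, and Ctsh was near the detection range in early EMP. Ctsl (cathepsin L, an endoprotease) was at 3.18, 6.66 and 3.43 FPKM, highest in late EMP. Ctsh (cathepsin H, an aminopeptidase) was at 0.32, 1.99 and 2.36, lowest in early EMP, where about 7 fragments stood behind it at the estimated depth. With a pseudocount of 5 FPKM both fell under 1.5-fold in every comparison. For Ctsl, 26.9% of exonic bases are shared with a gene on the opposite strand, and the sources used here do not say whether the counting used strand.

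**Figure D4:**
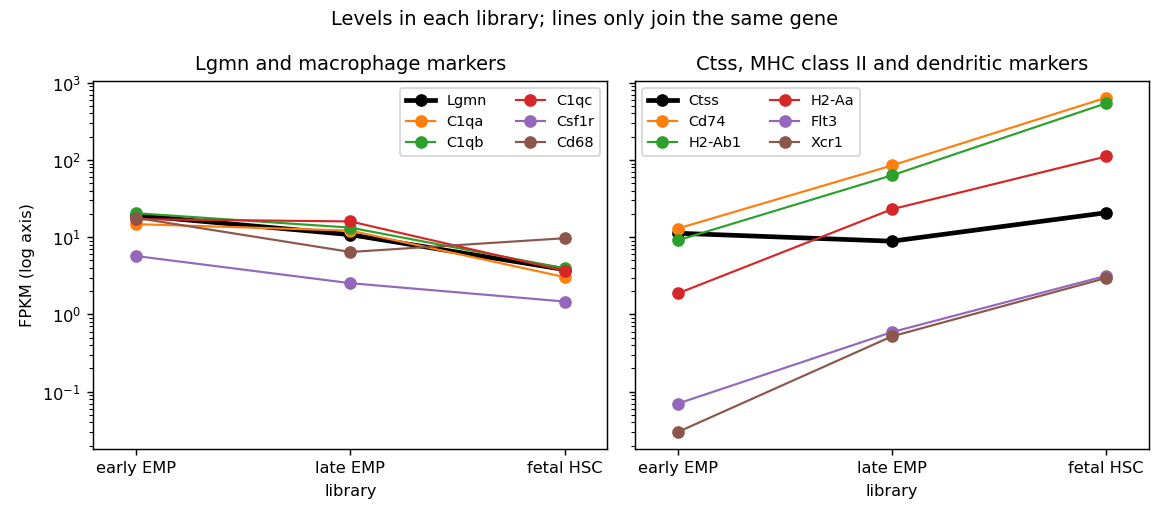
Levels in FPKM (log axis) of Lgmn beside some of the macrophage markers read (left) and of Ctss beside some MHC class II and dendritic cell markers (right), 1 library per origin. Not all markers read are plotted. Left out on the macrophage side are, among others, Lyz2, highest in fetal HSC, and Adgre1 and Cd163, highest in late EMP. Cd68, which is plotted, is lowest in late EMP, unlike Lgmn. Also left out are the dendritic markers Epcam, highest in early EMP, and Cd209a, highest in late EMP. The class II genes H2-DMb1, H2-Oa and H2-Ob, lowest in late EMP as Ctss is, are not plotted either. Lgmn and the C1q genes are lowest in fetal HSC, at 3.05 to 3.96 FPKM, while Ctss is lowest in late EMP and the plotted MHC class II genes Cd74, H2-Ab1 and H2-Aa in early EMP.

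Among the other peptidases, Ctsd (chromosome 7, 142375910 to 142387827) was the most abundant member, at 947, 967 and 522 FPKM. It lay close in both EMP libraries and lower in fetal HSC, by 0.86 against early EMP and 0.89 against late EMP. The annotated gene model Gm49369 shares 34.4% of its exonic bases on the same strand, so how reads were assigned between them is uncertain. Tpp1, which removes tripeptides, was at 182, 196 and 152 FPKM. Ctsa, the carboxypeptidase that also protects galactosidase and neuraminidase, was at 115, 86.8 and 96.8. Neither reached 1.5-fold in any comparison.

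Of 10 glycosidases, none was 1.5-fold higher in any comparison, where 8.85% to 18% of all kept genes were. For fetal HSC over early EMP 7 of the 10 lay below 0, with a median of -0.38, where 56.5% of all kept genes lay below 0. Man2b1, lysosomal alpha-mannosidase, was at 146, 126 and 74.0 FPKM, the furthest of the group (-0.98 and -0.76 for fetal HSC over early and late EMP). Gaa, the alpha-glucosidase that degrades glycogen, was at 17.9, 13.9 and 10.4, and Naglu, which acts on heparan sulfate, at 23.8, 21.9 and 15.2. Both were at least 1.5-fold lower in fetal HSC than in early EMP; centring on GC content brought Gaa to -0.52 and Naglu to -0.41, under 1.5-fold. Glb1, the beta-galactosidase, was at 32.9, 36.1 and 21.8, with -0.57 for fetal HSC over early EMP and -0.70 over late EMP. With median-of-ratios scaling the latter was -0.57, under 1.5-fold, and without the 50 most abundant genes the former was -0.60, past it.

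The hexosaminidase subunit Hexa, whose enzyme is a standard readout of mast cell degranulation, was at 141, 206 and 151 FPKM, highest in late EMP, at 0.54 over early EMP. Rescaled to the same total this was 0.60, past 1.5-fold. Gusb, the beta-glucuronidase, was the least variable glycosidase at 57.7, 60.9 and 59.1. Fuca1, the fucosidase, was at 65.2, 66.0 and 82.8 and was highest in fetal HSC. Neu1 (sialidase) was at 13.8, 15.1 and 10.1, Galc (galactosylceramidase) at 21.0, 15.7 and 16.4, and Idua (iduronidase) at 8.03, 9.09 and 7.09, all within 1.5-fold, except that Neu1 was -0.60 for fetal HSC over late EMP when rescaled to the same total.

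Sulfatases remove sulfate from glycans and lipids, heparin-like chains included. Sgsh, the sulfamidase of heparan sulfate (chromosome 11, 119343489 to 119355510), was at 34.1, 18.3 and 13.3 FPKM, highest in early EMP by 0.86 over late EMP and 1.30 over fetal HSC. For this gene, 21.6% of exonic bases are shared on the opposite strand, the largest overlap being with Card14. Ids, the iduronate sulfatase, was at 31.9, 23.5 and 19.9 FPKM, and it too was highest in early EMP (-0.65 for fetal HSC over early EMP, and -0.57 with median-of-ratios scaling). Arsa, which acts on sulfatide, was at 9, 12.4 and 6.02 FPKM, and was lower in fetal HSC than in late EMP by 0.93.

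Arsb, which acts on dermatan and chondroitin sulfate, was the exception among the sulfatases, at 0.76, 0.59 and 2.67 FPKM. Its values rest on about 46, 36 and 180 fragments at the estimated depth. The intervals for counting error alone were 0.56 to 1.01, 0.41 to 0.82 and 2.299 to 3.10 FPKM. That of fetal HSC did not overlap those of both EMP libraries, but the intervals hold no difference between animals or preparations. With a pseudocount of 5 FPKM Arsb was under 1.5-fold in both comparisons. An antisense gene, Gm26527, shares 39.9% of its exonic bases.

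Among the 5 lipid hydrolases and acid phosphatases, none was at least 1.5-fold higher and 1 was lower for fetal HSC over early EMP, against 15.8% and 28.2% of all kept genes. Ppt1, the palmitoyl-protein thioesterase, was at 57.7, 53.5 and 82.4 FPKM, highest in fetal HSC by 0.61 over late EMP; with rescaling to the same total this was 0.56, under 1.5-fold. Asah1, acid ceramidase, was at 59.6, 65.5 and 72.6, and Lipa, lysosomal acid lipase, at 10.51, 12.90 and 13.70. All 3 had their highest value in fetal HSC. The acid phosphatase Acp2 was at 4.24, 4.10 and 5.13 FPKM. Acp5, the tartrate-resistant phosphatase of osteoclasts and macrophages, was at 1.68, 0.16 and 0.73, from about 32, 3 and 15 fragments. At such low levels its difference depended on the pseudocount: fetal HSC over late EMP was 0.58, and 1.67 with 0.1 FPKM.

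Of the soluble cofactors, Psap, the precursor of the saposins that present lipids to hydrolases, was at 91.5, 92.8 and 77.1 FPKM. Grn, progranulin, was at 118, 142 and 121 FPKM. Npc2, which carries cholesterol in the lumen, was at 78.3, 93.6 and 113 FPKM, highest in fetal HSC and 0.52 above early EMP and 0.61 above it with median-of-ratios scaling. As deposited, all 3 lay within 1.5-fold over the libraries.

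Membrane proteins had a median of -0.54 for fetal HSC over early EMP, with 7 of 8 below 0 and 4 at least 1.5-fold lower, against 56.5% and 28.2% of all kept genes. Lamp1, the main glycoprotein of the lysosomal membrane, was at 143, 148 and 85.4 FPKM, alike in both EMP libraries and lower in fetal HSC by 0.74 and 0.78. Its relative Lamp2 was at 78.3, 97.7 and 71.5, a difference of -0.13 from early EMP. Mcoln1, the calcium channel mucolipin that acts upstream of TFEB, was at 19.9, 22.4 and 12.7, lower in fetal HSC by 0.61 and 0.77. Npc1, the membrane partner of Npc2 in cholesterol export, was at 9.83, 9.11 and 6.22, and Cln3, the Batten disease protein, at 13.6, 10.8 and 8.62. With median-of-ratios scaling Mcoln1 (-0.53), Npc1 (-0.51) and Cln3 (-0.53) were under 1.5-fold for fetal HSC over early EMP. After GC centring Mcoln1 was also under it over late EMP, at -0.57. Npc1 and Npc2 ranked the libraries in opposite orders.

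Laptm5 was the most abundant membrane member, at 434, 644 and 370 FPKM, highest in late EMP and 0.80 lower in fetal HSC than there. Late EMP was 0.57 above early EMP, and 0.63 with rescaling to the same total, which is past 1.5-fold. Laptm4a was at 50.2, 43.3 and 35.5 FPKM, and Scarb2, the receptor that delivers glucocerebrosidase, at 11.9, 12.1 and 13.4. Scarb2 was the 1 membrane member above 0 for fetal HSC over early EMP. Lyst, the trafficking regulator mutated in beige mice, whose mast cells carry giant granules, hardly varied at 7.46, 7.62 and 7.60 FPKM.

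The transcription factors were low. Tfe3 was at 7.24, 11.5 and 7.53 FPKM, and Tfeb at 0.48, 1.26 and 0.63 from about 16, 43 and 24 fragments. Both were highest in late EMP, by 0.60 and 0.61 over early EMP. With median-of-ratios scaling these were 0.55 and 0.58, under 1.5-fold. The related factor Mitf, which mast cells need, was at 30.2, 25.8 and 23.6 FPKM and was the most abundant of the family here, while Tfec had 0.21 FPKM in fetal HSC and was listed at 0 elsewhere. Tfe3, Lamp2 and Ids are X-linked, and the libraries differ in sex-linked RNA: Xist was at 25.6, 0.53 and 52.0 FPKM and Ddx3y at 20.7, 38.5 and 0.32. The relation of sex to the values of these 3 genes, or of the other members, was not tested.

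Setting the differences against the promoter motif divided the members, a grouping chosen after the values were seen. For fetal HSC over early EMP, the 12 members with the core had a median of -0.61 and ranged from -2.07 (Lgmn) to 0.08 (Ctsl), and 11 of them lay below 0. The 27 members without it had a median of 0.03, with 12 below 0. Of all kept genes, 56.5% lay below 0. For fetal HSC over late EMP the medians were -0.73 and -0.04, with 11 of 12 and 15 of 27 below 0, against 58.0% of all kept genes. For late over early EMP they were -0.04 and 0.02, and the sign of both, like that of the -0.04 before, turned under other scalings. Lamp1, Ctsd, Lgmn, Sgsh and Mcoln1, whose motifs are printed above, are among the lower members, but so is Man2b1, whose promoter entry lacks the core.

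The same division was absent from the other genes read. In the 7 other lysosomal lists the core was as frequent, in 26 of 85 genes (30.6%), yet the 25 kept genes with it had a median of -0.11 for fetal HSC over early EMP and the 56 without it -0.23. Against late EMP both medians were close to 0, at -0.05 and -0.03. Over all kept genes with a symbol, 1116 with the core and 8180 without it had medians of -0.04 and -0.03. No match in this window says only that these letters are not in it.

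**Figure D5:**
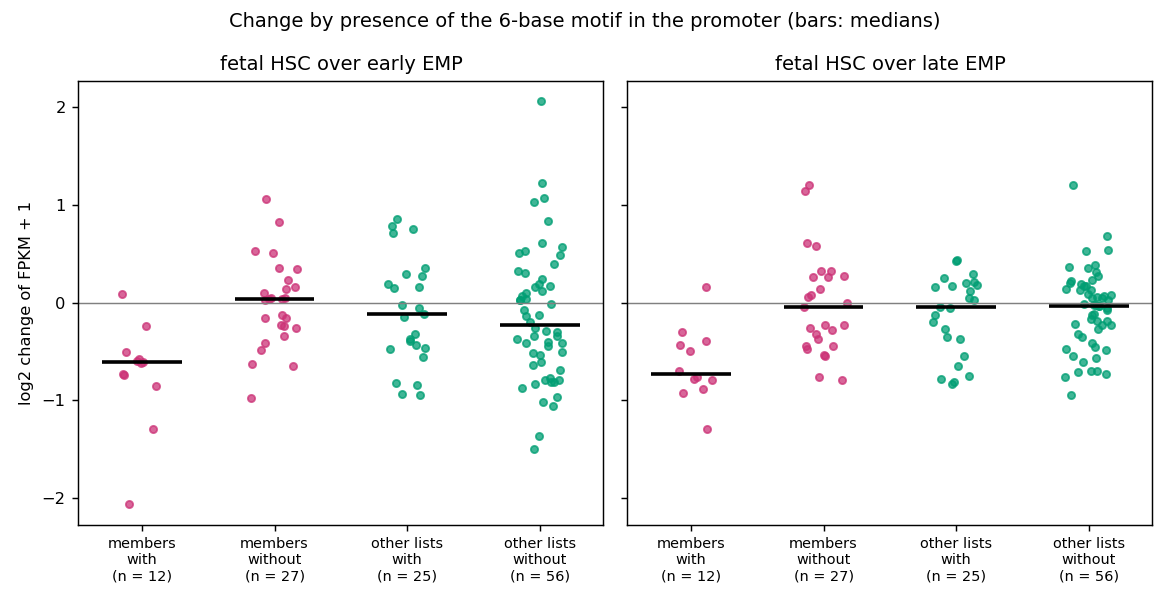
Log2 difference of FPKM + 1 for fetal HSC over early EMP (left) and over late EMP (right), for members (pink) and other lysosomal genes (green) with and without the core motif in the promoter; each point is a gene and the bars are medians. The 12 members with the motif centre on -0.61 and -0.73, the 27 without on 0.03 and -0.04, and the 2 green columns of each panel overlap.

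The GC content of the transcript moved with the same comparisons. Over all kept genes with a symbol, the median difference for fetal HSC over early EMP went from 0.09 in the lowest decile of GC content to -0.21 in the highest. Over late EMP it went from -0.03 to -0.26. Members with the core had a median GC content of 55.5% and those without it 51.3%. After subtracting the median of each gene's decile, the medians for fetal HSC over early EMP were -0.49 with and 0.01 without the core, and the median of all 43 members was -0.12. The values over late EMP were -0.59, 0.01 and -0.19.

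Other parts of the lysosome were read from lists of 114 further genes, of which 113 are in the table and 106 passed the filter. For fetal HSC over early EMP, 11 of the 106 were at least 1.5-fold higher and 23 lower, with a median of -0.14, both shares below the 15.8% and 28.2% of all kept genes. Of kept genes with a symbol, 16.7% were higher and 19.3% lower, so the share of lower genes was above this background. For late over early EMP, 8 of the 106 were higher and 8 lower (median -0.03), against 18% and 20.7% of all kept genes. For fetal HSC over late EMP 3 were higher and 15 lower (median -0.04), against 8.85% and 19.1%. The V-ATPase was abundant: 17 subunits and accessory proteins summed to 2403, 2135 and 2350 FPKM. Of all kept genes, 15.8% were at least 1.5-fold higher and 28.2% lower for fetal HSC over early EMP. Between the same libraries, 16 of the 17 V-ATPase genes were within 1.5-fold. Its most abundant subunits were Atp6v0e at 433, 349 and 427 FPKM and Atp6v1f at 439, 363 and 400. The exception between fetal HSC and early EMP was Atp6v0d2, a subunit best known from osteoclasts and macrophages, at 9.86, 1.33 and 1.87 FPKM. Atp6v1g1 was at 153, 117 and 179 and Atp6v0a1 at 8.57, 13.2 and 7.70. For fetal HSC over late EMP these 2 were past 1.5-fold, at 0.61 and -0.71.

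Of the delivery genes, M6pr, a mannose 6-phosphate receptor, was at 136, 111 and 132 FPKM and Gnptab, which makes the phosphate tag, at 39.1, 35.6 and 31.6. The second receptor gene, Igf2r, was at 5.23, 5.18 and 2.46, and Nagpa, which uncovers the tag, at 3.79, 9.47 and 7.68. In the list of further hydrolases and luminal proteins, Epdr1 was at 8.81, 34.7 and 40.0 FPKM and Rnaset2b, an acid ribonuclease, at 96.1, 97.5 and 226. Rnaset2b has a near-identical copy, so its single value is uncertain. Scpep1, a carboxypeptidase, was at 14.7, 4.91 and 6.55 and Arsg, a sulfatase of heparan sulfate, at 5.44, 2.77 and 1.27.

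The tetraspanin Cd63, a marker of granule membranes, was the most abundant membrane gene outside the members at 1625, 1164 and 1218 FPKM, followed by Cd164 at 76.3, 88.4 and 85.4. Furthest apart in that list were Cd68, given above, Slc17a5, the sialic acid exporter, at 11.2, 5.88 and 3.72 FPKM, Tmem192 at 41.60, 16.96 and 19.99, and Laptm4b at 4.04, 7.36 and 8.99. Among genes that tie the lysosome to growth signalling, the Ragulator subunits Lamtor2 (305, 263 and 327 FPKM) and Lamtor1 (71.4, 51.0 and 39.8) differed from each other in order. The Rag GTPase Rragc was at 29.3, 14.3 and 14.8, Rraga at 3.92, 5.81 and 7.78, Fnip1 at 115, 127 and 147, and the kinase Mtor at 5.66, 3.98 and 2.90. In the list of granule trafficking complexes, 5 of 22 genes were at least 1.5-fold lower and none higher for fetal HSC over early EMP (median -0.31). That share is below the 28.2% of all kept genes and above the 19.3% of those with a symbol. The 5 lower genes included Vps16 at 24.8, 19.9 and 12.3 FPKM, Vps18 at 20.4, 13.7 and 11.1, and Ap3m1 of the AP-3 adaptor at 28.1, 24.4 and 13.9. Hps5 was at 3.11, 7.33 and 3.96 FPKM, while the most abundant genes of the list, Rab32 (109, 148 and 143) and Bloc1s1 (113, 108 and 125), lay within 1.5-fold.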

How the data were processed

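The authors deposited 1 table of FPKM values per gene for the 3 libraries, per the file headers, with 2 decimals. RNA was extracted with TRIzol and sequenced on an Illumina HiSeq, per the labels' protocols. The submitters' processing notes name Bowtie2, RSEM, mm10 and GRCm38, without versions. Columns were matched to libraries through the labels' descriptions (for early EMP, a column named as control). FPKM is a share of the library, so abundant granule proteases affect every other value.

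Genes at 1 FPKM or more in at least 1 library were kept. Fold changes are log2((FPKM + 1) / (FPKM + 1)), and 1.5-fold and 2-fold are levels of size, not tests. With 1 library per group no test was possible. Every member is described. Of the other lists, the 2 most abundant genes and up to 4 of the furthest apart at 5 FPKM or more are named, with markers as needed; 1 such gene is not reported here. The members and lists were chosen with earlier results of these data known, and so were the fold levels. Positions come from RefSeq (GRCm38.p6), and transcript GC content and exon overlap from GENCODE M21 through RefSeq accessions, found for 43 of 43 members and 11385 of 11529 kept genes with a symbol. Depth was estimated from genes with 1 transcript as the step that put most low values within 0.15 of a whole number of fragments (73.2%, 73.8% and 67.1%, where 30% is given for a step fixed beforehand). Intervals use that estimate and cover counting error only. Alternatives were other pseudocounts, filters and scalings, and centring on 10 bins of GC content, which was added after the data were seen, as were the division by promoter motif and the background of genes with a symbol. Protein sequences were not used here. Software was scipy 1.17.1, pandas 2.3.3, matplotlib 3.10.9 and numpy 2.4.6 under Python 3.11.15.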

Additional observations from a re-analysis of the deposited data

How the results depend on the processing

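The median for fetal HSC over early EMP stayed below 0 under all 8 alternatives run, from -0.26 to -0.12, the latter (against -0.23) with GC centring. For fetal HSC over late EMP it was -0.34 to -0.15, the latter with median-of-ratios factors. For late over early EMP the median of 0.02 had no stable sign: it was -0.032 with median-of-ratios factors, -0.028 without the 50 most abundant genes and -0.036 with GC centring. The median of members without the motif took the same 3 values there, and for fetal HSC over late EMP it was 0.089 with median-of-ratios factors and 0.0073 with GC centring, against -0.04. Members with the motif had 0.013 for late over early EMP when rescaled to the same total. The number of members at least 1.5-fold apart depended on the pseudocount: with 5 FPKM it was 2 in place of 7 for late over early EMP and 6 in place of 15 for fetal HSC over early EMP. With the filter at 5 FPKM, which leaves 39 members, the first was 4. With GC centring the second was 9. Rescaled to the same total, which changes the unit, the summed levels were 5420.3, 5988 and 4291, and with median-of-ratios factors the late EMP sum was 3478. No called member changed direction under any of these alternatives, and the cause of the shifts was not tested. For members with the promoter motif, the medians over early and late EMP ranged from -0.65 to -0.49 and from -0.81 to -0.54. No paired analysis was possible because each group has 1 library. Leaving out a replicate was not possible for the same reason. The counting depth limits Ctsh, Acp5, Tfeb and Arsb, while differences between animals or preparations were not measured.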
